A study of Mus musculus with 13 samples.

Results

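The genes of V(D)J recombination and of the end joining that closes its breaks were examined in EPLMs, the early bone marrow progenitors that carry lymphoid and myeloid potential. The set was named gene by gene and comprises Rag1, Rag2, Dntt, Lig4, Xrcc4, Xrcc5, Xrcc6, Prkdc, Dclre1c and Nhej1. In the platform annotation 9 of these 10 genes have at least 1 probe set with a single gene symbol, 14 probe sets in all of 45037, and Dclre1c, the gene of the nuclease Artemis, has none and is not analysed here. EPLMs were sorted from the bone marrow of 7-week-old B6CF1 x C57BL/6 littermates, 3 of each genotype (WT and BCS), and every mouse had an Affymetrix Mouse 430v2 array of its own. BCS mice carry a human OBF1 cDNA with an HA tag, driven by the murine Emu enhancer and a VH promoter, so that the coactivator is made from an early stage of the B lineage, and WT littermates lack the transgene. The promoter and enhancer can also be active in T cells. Which of the transgenic lines gave the arrays is not given in the sources used here. The 7 arrays of large preB2 cells in the series were not compared and entered only 1 alternative fit, for the estimate of spread, since their values do not follow the probe set names (between EPLM and large preB2 arrays the mean log2 level had r = 0.0944 over 45037 probe sets, while it had r = 0.978 over the 64 control features, both across features of the same arrays).

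In V(D)J recombination, the RAG1 and RAG2 proteins together cut the DNA beside the variable, diversity and joining segments of antigen receptor genes. The ends are bound by the Ku dimer, which recruits the kinase DNA-PKcs, Artemis opens the hairpins left by the cut, the terminal transferase TdT adds bases without a template, and DNA ligase 4 seals the ends together with XRCC4 and XLF. Expression of the RAG genes and of TdT marks lymphoid progenitors before the commitment to a lineage, and it falls away in mature lymphocytes, whereas the end joining factors are used in all tissues to repair breaks.

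Promoter sequence is shown for the genes on which the results turn, the 3 that rose in BCS EPLMs and Rag2, the neighbor and partner of Rag1, because OBF1 acts through octamer motifs and the E proteins, which bind E boxes, control lymphoid promoters. Each sequence holds the 250 bases before the RefSeq start of the gene on build GRCm38.p6, read 5′ to 3′ on the strand of the gene, with E boxes (CANNTG) in capitals. They lie at chr2:101649533-101649782 (minus strand) for Rag1, chr2:101624462-101624711 (plus strand) for Rag2, chr8:9977681-9977930 (minus strand) for Lig4, the outer of its 2 starts, and chr1:72307171-72307420 (plus strand) for Xrcc5.
Rag1: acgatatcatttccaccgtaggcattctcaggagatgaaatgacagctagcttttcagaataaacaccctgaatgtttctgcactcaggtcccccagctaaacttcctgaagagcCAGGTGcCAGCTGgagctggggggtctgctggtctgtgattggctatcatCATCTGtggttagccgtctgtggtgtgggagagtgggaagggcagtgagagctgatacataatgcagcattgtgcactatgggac
Rag2: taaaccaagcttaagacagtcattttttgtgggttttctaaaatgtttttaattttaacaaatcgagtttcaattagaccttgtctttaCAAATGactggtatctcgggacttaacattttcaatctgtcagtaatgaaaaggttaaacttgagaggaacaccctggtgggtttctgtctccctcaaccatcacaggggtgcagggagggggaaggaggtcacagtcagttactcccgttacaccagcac
Lig4: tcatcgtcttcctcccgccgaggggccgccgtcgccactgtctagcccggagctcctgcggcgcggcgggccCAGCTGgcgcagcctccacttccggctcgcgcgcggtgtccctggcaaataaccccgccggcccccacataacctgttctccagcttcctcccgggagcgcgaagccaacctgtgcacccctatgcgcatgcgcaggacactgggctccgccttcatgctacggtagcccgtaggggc
Xrcc5: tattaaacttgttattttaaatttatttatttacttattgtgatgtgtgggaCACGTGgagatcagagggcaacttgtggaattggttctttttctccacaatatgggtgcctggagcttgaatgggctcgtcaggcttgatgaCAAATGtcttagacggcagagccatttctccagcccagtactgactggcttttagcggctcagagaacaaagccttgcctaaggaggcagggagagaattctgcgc
The Rag1 window holds 3 E boxes, among them the adjacent letters CAGGTG and CAGCTG, the Rag2 window 1, the Lig4 window 1 and the Xrcc5 window 2. In all, 10 such windows of 9 member genes were in the table (Lig4 has 2, and Prkdc has no entry). The octamer ATGCAAAT, searched on both strands, was in 0 of these 10 windows and in 1.6% of 32851 mouse promoters of the same length. With at most 1 mismatch it was in 2 of 10 windows, those of Dntt and Dclre1c, and in 16.6% of all. E boxes were in 9 of 10 windows and in 66.2% of all, CCAAT on either strand in 3 of 10 (Rag1, Xrcc5 and Dclre1c) and in 33.8%, and CCCNNGGG, the core of the EBF1 motif, in 0 of 10 and in 11.8%. A match of letters describes the window only, and the absence of a match says nothing about a factor at these genes.

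The authors deposited linear GCRMA intensities, with a median of 20 on each EPLM array and an upper quartile of about 337. Log2 of the intensity plus 1 was compared between genotypes with limma, and rose or fell is written where the Benjamini-Hochberg adjusted p over all 45037 probe sets was under 0.05. Each gene is given by its brightest probe set, and the levels of different genes cannot be compared, since probe sets differ in how brightly they read. The genes of the EPLM gate were read on all 6 arrays, with intensities of 460 to 511 for Kit and 13820 to 24520 for Cd93. Ptprc, which encodes B220, fell, from 18870 to 21730 in WT to 14530 to 16450 in BCS EPLMs (log2 change -0.40, SE 0.07, limma adjusted p = 0.0101), so that 1 gene of the gate moved with genotype. Xist was at 19100 to 31920 and the Y-linked genes Eif2s3y, Kdm5d and Uty lay below the array median on all 6 arrays, of both genotypes. The mouse probe set of Pou2af1, the OBF1 gene, read 3400 to 7250 in WT and 10320 to 10860 in BCS EPLMs, and whether it reads the human transgene is not known.

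Of the 9 measured genes, 3 rose in BCS EPLMs (Lig4, Xrcc5 and Rag1) and none fell (limma, adjusted p under 0.05). The background was 3.15% of 18193 genes higher and 4.68% lower. At an unadjusted p under 0.05, Dntt and Nhej1 were also higher and Prkdc was lower, where 11.3% of all genes were higher and 11.6% lower at that threshold. By probe set, 4 of 14 rose, and none fell, beside 2.24% and 3.25% of all probe sets. The BCS mean lay above the WT mean for 8 of the 9 genes, and Prkdc was the exception. The median log2 change was 0.29 over the 9 genes and 0.01 over all genes. The intensities of the genotypes did not overlap for 6 of the 9 genes, 5 with BCS above WT and 1 with BCS below, where 14.4% of all genes had BCS above and 14.2% BCS below without overlap.

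**Figure D1:**
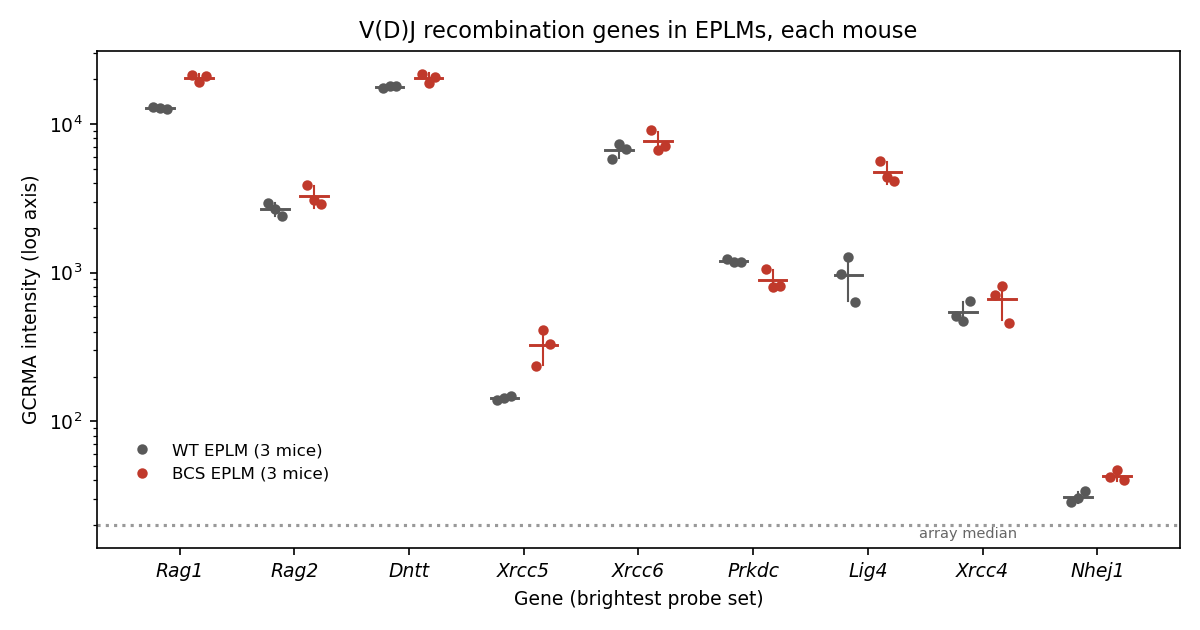
GCRMA intensity (log axis) of the brightest probe set of each of the 9 measured genes in EPLMs, where points are single mice, short horizontal bars give the mean of 3 mice and vertical lines span 1 SD above and below it. Rag1 lies at 12710 to 13020 in the WT mice and at 19170 to 21220 in the BCS mice, and Lig4 at 638 to 1278 and at 4111 to 5630.

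Rag1, which encodes the subunit of the recombinase that binds and cuts the DNA, had intensities of 13020, 12890 and 12710 in the 3 WT mice and of 21220, 19170 and 20970 in the 3 BCS mice. The WT mice lay within a narrow band, and every BCS mouse was above it. WT EPLMs had a mean of 12870 ± 156 (SD, n = 3) and BCS EPLMs one of 20450 ± 1116 (SD, n = 3). On the log2 scale the change was 0.67 (standard error, SE, 0.05, 95% interval 0.55 to 0.79, limma adjusted p = 0.000207), or 1.59-fold. The call held when any 1 of the 6 arrays was left out (adjusted p from 0.000514 to 0.00183). It was lost only with the methods' t-test on linear intensities (adjusted p = 0.0584), among the 19 alternatives tried. Of the 19, the fit that takes in the large preB2 arrays carries no weight for Rag1, since values there do not follow the probe set names.

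Rag2, which encodes the subunit that reads the histone mark of active chromatin, lies beside Rag1 in the genome and is transcribed toward it. Its intensities were 2919, 2682 and 2405 in WT and 3905, 3062 and 2885 in BCS EPLMs. BCS replicate 1 was the highest of the 6 mice, and BCS replicate 3 lay below WT replicate 1, so the genotypes overlapped. The log2 change was 0.29 (SE 0.13, 95% interval -0.01 to 0.59) and did not pass (limma adjusted p = 0.292). A rise as large as that of Rag1 lies outside this interval, while a change of 0 and a rise of 0.59 both lie within it.

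Within each array the log2 level of Rag1 minus that of Rag2, set to 0 at the WT mean, was -0.12, -0.01 and 0.13 in WT and 0.17, 0.37 and 0.59 in BCS mice. The difference was thus larger in every BCS mouse than in any WT mouse, by 0.38 on average (BCS SD 0.21, WT SD 0.12). The exact permutation test (two-sided) gave p = 0.1, the smallest that 3 mice against 3 allow. This pair and those of the Ku dimer and the ligase complex, 3 in all, were chosen after their values were seen. The permutation p adjusted over the 3 was 0.1 for each, and this adjustment does not account for the choice.

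Rag1 and Rag2 lie close together, and their surroundings were compared too. Of the 4 listed neighbors, Iftap, whose annotated span overlaps the start of Rag2, Traf6, which encodes a signaling adaptor, Prr5l and Commd9, named here after their values were seen, none passed on its brightest probe set, and all had lower means in BCS EPLMs, with a median log2 change of -0.26. Traf6 had intensities of 391, 410 and 376 in WT and 343, 289 and 354 in BCS mice, a log2 change of -0.26 (SE 0.16, limma adjusted p = 0.441). The genotypes did not overlap at Traf6 or at Prr5l, both with BCS below WT, as was the case for 14.2% of all genes. Prr5l had a log2 change of -1.05 (SE 0.27, limma adjusted p = 0.0635). It passed as lower without WT replicate 1 (adjusted p = 0.0461) and on a filtered set of brighter probe sets. It also passed in the fit that takes in the large preB2 arrays. Values there do not follow the probe set names, so that call carries no weight for Prr5l. Of the 3 probe sets of Prr5l, 1 of the dimmer ones passed as lower.

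Dntt, the gene of TdT, has 3 probe sets, which did not give the same result. On the brightest the intensities were 17520, 17910 and 17950 in WT and 21820, 19000 and 20660 in BCS EPLMs. All 3 BCS mice were above all WT mice, but the log2 change was only 0.20 (SE 0.06, 95% interval 0.07 to 0.33) and did not pass (limma adjusted p = 0.0821). It passed without BCS replicate 2 (log2 change 0.26, adjusted p = 0.0409).

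The next probe set of Dntt read 15450, 12340 and 13470 in WT and 22030, 17730 and 17150 in BCS mice, again without overlap. Its log2 change was 0.46 (SE 0.11) and passed (limma adjusted p = 0.0423). The dimmest read 1200, 1382 and 1445 in WT and 1024, 1267 and 1885 in BCS mice. Here BCS replicate 1 was the lowest and BCS replicate 3 the highest of the 6 mice, and the log2 change was 0.01 (SE 0.21, 95% interval -0.46 to 0.48, limma adjusted p = 0.99). Both brighter probe sets lie at or above percentile 98.9 of all levels, and whether signal is compressed there was not tested.

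**Figure D2:**
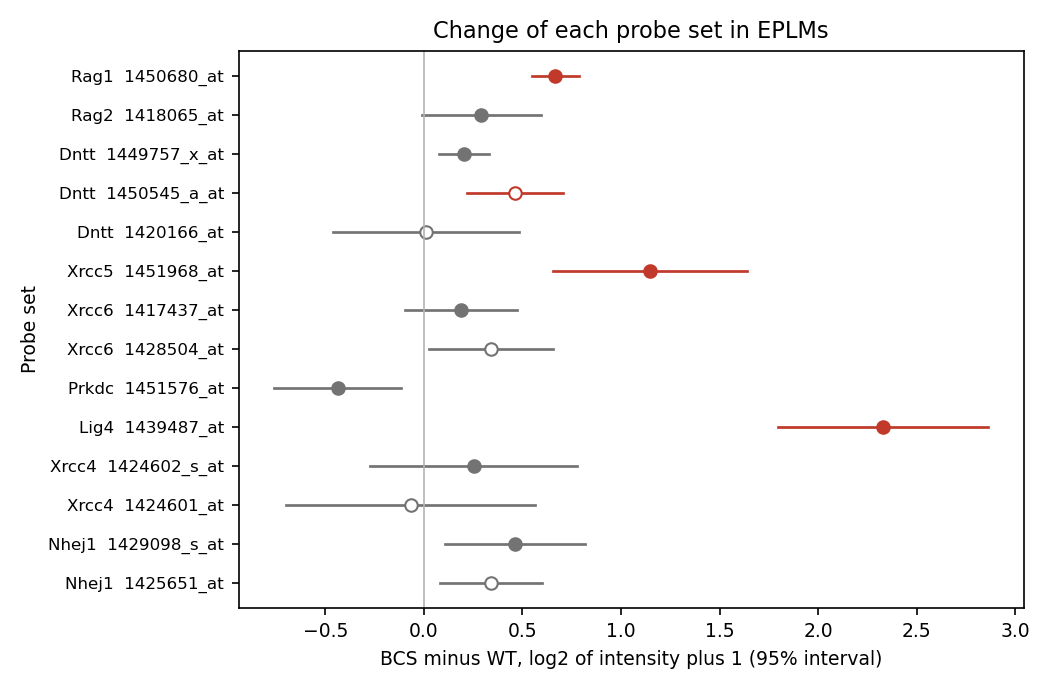
Log2 change (BCS minus WT) of each of the 14 probe sets of the 9 genes, with the 95% interval from limma as a line, filled points for the brightest probe set of a gene, open points for others and red for an adjusted p under 0.05. Lig4 lies farthest to the right at 2.33, and the intervals of the Xrcc4 probe sets include 0.

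Of the genes that act first on the broken ends, Xrcc5, which encodes the Ku80 subunit, rose, and its partner Xrcc6, which encodes Ku70, did not pass. Xrcc5 had intensities of 138, 143 and 147 in WT and of 237, 411 and 329 in BCS EPLMs. The WT mice were close together and the BCS mice were all higher and more widely spread. The log2 change was 1.15 (SE 0.22, 95% interval 0.66 to 1.64, limma adjusted p = 0.0168), or 2.22-fold. The Xrcc5 call was lost without any 1 of the arrays except BCS replicate 1 (adjusted p over the 6 fits from 0.00788 to 0.063). It was also lost with the methods' t-test on log2 values (adjusted p = 0.153) and on linear intensities (adjusted p = 0.241).

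Xrcc6 had intensities of 5849, 7330 and 6832 in WT and of 9075, 6725 and 7102 in BCS EPLMs. Only BCS replicate 1 was above all WT mice. Its log2 change was 0.19 (SE 0.13, 95% interval -0.09 to 0.47, limma adjusted p = 0.497). A further probe set of Xrcc6 lay at the array median (16.7 to 20.8 in WT and 21.7 to 25.6 in BCS mice) and did not pass either (log2 change 0.34, limma adjusted p = 0.231). The log2 level of Xrcc5 minus that of Xrcc6 was above the WT mean by 0.28, 1.50 and 1.10 in the BCS mice and deviated from it by -0.14 to 0.14 in WT mice (two-sided exact permutation test, p = 0.1, the lowest possible).

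Prkdc, which encodes the kinase DNA-PKcs that Ku recruits, was the only gene with a lower mean. Its intensities were 1229, 1184 and 1185 in WT and 1057, 806 and 815 in BCS EPLMs. Each BCS mouse was below each WT mouse, and BCS replicate 1 was nearest to them. The log2 change was -0.44 (SE 0.14, 95% interval -0.76 to -0.12) and did not pass (limma adjusted p = 0.132). Without BCS replicate 1 Prkdc passed as lower (log2 change -0.56, adjusted p = 0.048).

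Lig4, which encodes the ligase that seals the ends, changed most of the 9 genes. Its intensities were 984, 1278 and 638 in WT and 5630, 4429 and 4111 in BCS EPLMs. The WT mice spread over a wider relative range than those of the other 8 genes, yet the lowest BCS mouse was well above the highest WT mouse. WT EPLMs had a mean of 967 ± 320 (SD, n = 3) and BCS EPLMs one of 4723 ± 801 (SD, n = 3). On the log2 scale the change was 2.33 (SE 0.24, 95% interval 1.80 to 2.86, limma adjusted p = 0.000665), or 5.03-fold. The call held when any 1 array was left out (adjusted p from 0.000706 to 0.00419) and was lost with the methods' t-test on log2 values (adjusted p = 0.0934) and on linear intensities (adjusted p = 0.0982). Lig4 is read by 1 probe set, so no second probe set bears on the size of the change.

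Xrcc4, which encodes the partner that stabilizes ligase 4, had intensities of 514, 471 and 650 in WT and of 707, 818 and 459 in BCS EPLMs. BCS replicate 3 was the lowest of all 6 mice and the other BCS mice the highest. Xrcc4 had a log2 change of 0.25 (SE 0.23, 95% interval -0.27 to 0.78, limma adjusted p = 0.647), and its dimmer probe set had a log2 change of -0.07 (SE 0.28, limma adjusted p = 0.938). A change of Xrcc4 as large as that of Lig4 lies outside both intervals. The log2 level of Lig4 minus that of Xrcc4 was above the WT mean by 2.21, 1.65 and 2.38 in the BCS mice, where WT mice deviated from it by -0.81 to 0.66 (two-sided exact permutation test, p = 0.1, the lowest possible).

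Nhej1, which encodes XLF, the further partner of the ligase complex, was dim. Its brighter probe set read 28.6, 30.4 and 33.9 in WT and 42.0, 46.8 and 40.1 in BCS EPLMs, not far above the array median of 20, and the other lay below that median on all arrays. The genotypes did not overlap on either. The log2 change was 0.46 (SE 0.16, limma adjusted p = 0.149) and 0.34 (SE 0.12, limma adjusted p = 0.146). The mean of both probe sets passed (log2 change 0.40, adjusted p = 0.0303), at levels where the size of a change depends on the background.

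**Figure D3:**
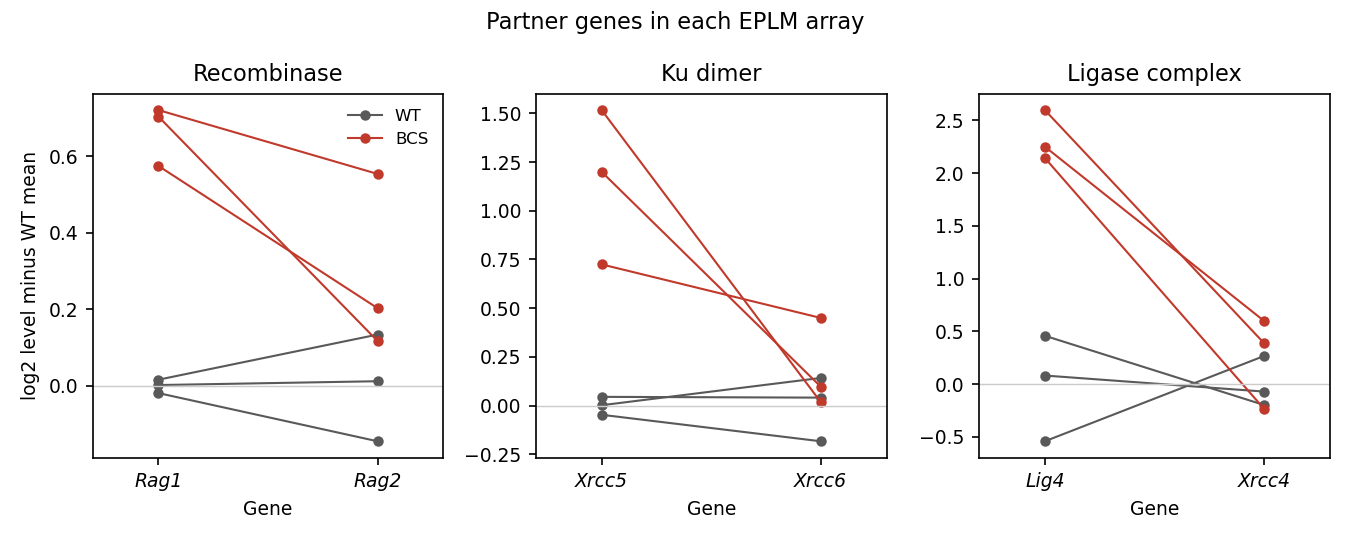
Log2 level of partner genes in each EPLM array, given as the difference from the WT mean of the same gene, with a line joining both genes of 1 array (3 WT in gray, 3 BCS in red) and a separate scale for each panel. In the BCS arrays Rag1, Xrcc5 and Lig4 lie above their partners Rag2, Xrcc6 and Xrcc4, as the lines that fall from left to right show.

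By the thresholds of the methods, an unadjusted p under 0.01 from the methods' t-test and medians at least 2-fold apart, Lig4 and Xrcc5 were the 2 member genes that passed. Counted by probe set, 2 of 14 passed (14.3%), beside 1.94% of all probe sets. The median of Rag1 differed 1.63-fold, and the methods' t-test on log2 values passed after Benjamini-Hochberg adjustment (adjusted p = 0.0442).

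Further genes of the reaction were compared from lists made up alongside the set. Over all genes, 3.15% rose and 4.68% fell, and 14.4% had BCS above WT without overlap. Of 12 measured accessory end joining factors, 1 rose and none fell (median log2 change 0.13). The riser was Poll, which encodes DNA polymerase lambda, a filler of small gaps in end joining, with intensities of 51.7, 40.8 and 47.4 in WT and of 86.6, 71.3 and 93.2 in BCS EPLMs. Its log2 change was 0.83 (SE 0.19, limma adjusted p = 0.0355), and the call was lost without any 1 of the 6 arrays (adjusted p from 0.0565 to 0.116). Lig3 and Xrcc1, which act together in the repair of single-strand breaks and in a backup route of end joining, had log2 changes of 0.41 (limma adjusted p = 0.131) and 0.23 (limma adjusted p = 0.466), and Parp1 had one of -0.05 (adjusted p = 0.703). These genes and those named in the next list were chosen after their values were seen.

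None of 11 measured genes of the break response that follows RAG cuts passed (median log2 change 0.09). Atm, the kinase that signals the break, had a log2 change of -0.15 (SE 0.16, limma adjusted p = 0.706), and Trp53bp1, which protects the ends, one of 0.01 (SE 0.09, limma adjusted p = 0.974). Nbn, a subunit of the complex that senses breaks, had intensities of 1272, 1157 and 1294 in WT and of 1603, 1577 and 1726 in BCS mice, without overlap, and a log2 change of 0.40 (SE 0.11, limma adjusted p = 0.0835). It passed where only brighter probe sets were tested.

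Of 11 measured cofactors and regulators of RAG, 2 rose and 1 fell (median log2 change -0.05). Ebf1, a factor of B lineage specification, had intensities of 6681, 7264 and 4532 in WT and of 10040, 12430 and 12800 in BCS EPLMs, a log2 change of 0.95 (SE 0.17, limma adjusted p = 0.0124). The call was lost without BCS replicate 2 and without BCS replicate 3 (adjusted p over the 6 fits from 0.012 to 0.055). Pax5, the factor of B lineage commitment, rose by 1.12 (SE 0.24, limma adjusted p = 0.0286) from dim levels of 28.7 to 45.1, and its call was lost without WT replicate 1, WT replicate 3, BCS replicate 2 or BCS replicate 3 (from 0.0266 to 0.111). Foxo3 fell, from 3529, 3576 and 3610 in WT to 2901, 2418 and 2379 in BCS mice, a log2 change of -0.48 (SE 0.10, limma adjusted p = 0.028). The Foxo3 call held only without BCS replicate 1 among the 6 fits with 1 array left out (from 0.0126 to 0.103). By probe set, 4 of the 5 of Ebf1 and 1 of the 2 of Pax5 passed as higher, and 1 of the 3 of Foxo3 passed as lower. Foxo1, which activates the RAG genes in B cell precursors, had a log2 change of -0.05 (SE 0.12, limma adjusted p = 0.876), Foxp1 one of -0.04 (adjusted p = 0.914) and Hmgb2, which bends DNA for the recombinase, one of 0.09 (adjusted p = 0.607).

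Of the receptor genes that recombination acts on, only Ighm, the mu heavy chain gene, has a probe set with a single symbol among the 8 listed. It read 16750, 21940 and 13600 in WT and 20660, 23010 and 28440 in BCS EPLMs, with overlap, and its log2 change of 0.48 (SE 0.17) did not pass (limma adjusted p = 0.159). Without WT replicate 2 it passed (adjusted p = 0.0393). The array reads the level of the transcript and not whether the locus was rearranged.

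**Figure D4:**
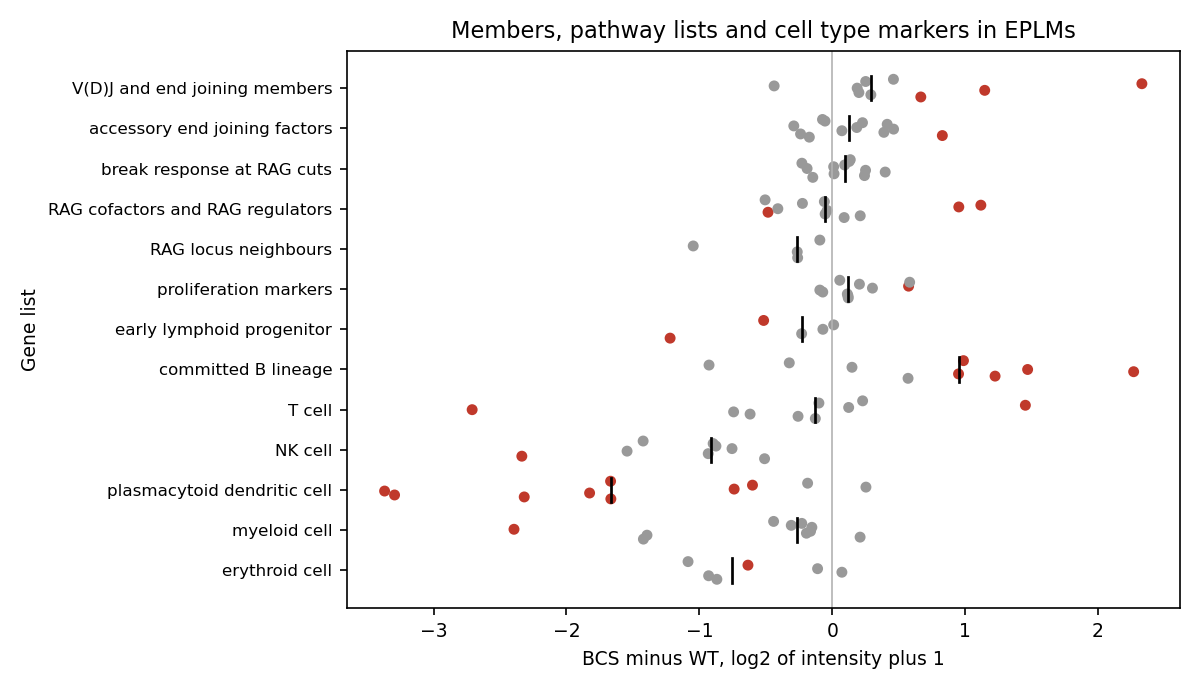
Log2 change (BCS minus WT) of each measured gene of the recombination set, of 5 pathway lists and of 7 marker lists in EPLMs, with points for genes, red for an adjusted p under 0.05 and a black bar for the median of a list. The medians of the set, the markers of committed B cells and the markers of plasmacytoid dendritic cells are 0.29, 0.95 and -1.67.

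Markers of cell types that the gate could hold moved with genotype, and fewer cells of a type and less RNA per cell cannot be told apart in sorted bulk samples. Of 9 measured markers of committed B cells, 5 rose, Pou2af1 among them, and the summed intensity was 34640 to 62800 in WT and 82270 to 91930 in BCS EPLMs. Of 10 markers of plasmacytoid dendritic cells, a lineage in which part of the cells has a history of RAG expression, 8 fell, with sums of 86350 to 94220 in WT and 42040 to 55510 in BCS mice. These sums are mostly Irf8 and Tcf4, with log2 changes of -0.60 and -0.74, where the median of the list was -1.67. Of 8 NK cell markers 1 fell, Klrd1 (sums 8216 to 14850 and 1460 to 4245), and these sums are mostly Klrd1 and Gzma. Of 10 myeloid markers 1 fell, Csf1r (sums 22660 to 71580 and 7970 to 48210). Most of the myeloid sums come from S100a8 and S100a9, which varied widely between mice and did not pass (limma adjusted p = 0.912 and 0.849). Of 6 erythroid markers 1 fell, Tfrc, the transferrin receptor, which dividing cells of other types also express. It makes up nearly all of the sums of that list (20390 to 23590 and 13020 to 15250), and the other 5 markers read at most 178 on any array. Of 9 T cell markers 6 had lower means in BCS mice (median log2 change -0.13), Cd8a fell by 2.71 on the log2 scale from dim levels, and Thy1 rose, from 401 to 898 in WT to 1438 to 1917 in BCS mice. The sums of this list (691 to 1471 and 1704 to 2152) follow Thy1, and the defining marker Cd3e was near the array median, at 16.2 to 33.0. Of 5 markers of early lymphoid progenitors 2 fell (53290 to 59680 and 40340 to 53460), among them Flt3, a cytokine receptor of early progenitors, by 1.22 on the log2 scale. Of 10 proliferation markers 1 rose, Cdk1, with a log2 change of 0.58 (SE 0.10, limma adjusted p = 0.0119). The Cdk1 call was lost with the methods' t-test on log2 values and on linear intensities. The sums of this list were 128100 to 145600 in WT and 139900 to 156000 in BCS mice. The part of these shifts in the changes of Rag1, Xrcc5 and Lig4 was not tested.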

How the data were processed

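RNA of sorted EPLMs from 3 WT and 3 BCS mice was measured on Affymetrix Mouse 430v2 arrays, 1 mouse per array. The intensity values deposited by the authors were normalized with GCRMA (version not given), which corrects the background and makes the arrays share nearly the same distribution, so a shift of all genes cannot be seen. A genome build is not given in the sources used here. The labels give 1 cycle of labeling and the methods 2. The number of arrays limits the precision. Log2 of the intensity plus 1 was fitted with limma 3.58.1 (lmFit and a trended eBayes) in R 4.3.3 for BCS minus WT over the 6 EPLM arrays, without covariates, and p was adjusted over 45037 probe sets. The methods' t-test was an alternative. Of the probe sets, 34945 have 1 gene symbol, 932 several and 9160 none. Promoters and gene order are from RefSeq (GRCm38.p6). The fit was tested on simulated data. The members, the lists and the rule for named genes (all members, up to 4 passing genes per list, and the 3 genes most like Rag1, Rag2 and Dntt) were chosen with earlier results of these data known. Among the listed genes, Cyren, Rbbp8, Hmgb1 and Ccnb1 had no probe set with a single symbol.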

Additional observations from a re-analysis of the deposited data

How the results depend on the processing

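Of the 9 genes, no direction of a called change turned under any alternative. Of the 14 probe sets 4 rose, and 2 did at an adjusted p under 0.01. With the methods' t-test on log2 values 1 gene (Rag1) and 1 probe set rose, and with the methods' t-test on linear intensities 0 genes and 0 probe sets rose. With the methods' t-test, 267 and 164 of all probe sets passed, against 2472 with limma. The calls of the listed genes Poll, Ebf1, Pax5, Foxo3 and Cdk1 were lost with both forms of the methods' t-test. With 1 array left out, 2 to 3 genes and 2 to 3 probe sets rose, and 0 to 1 genes and 0 to 1 probe sets fell, the 1 being Prkdc without BCS replicate 1. The deviations of same-numbered WT and BCS arrays correlated with r = -0.03, 0.05 and 0.09 over 20383 probe sets. No pairing by number was seen, though 3 arrays a group cannot show that there was none. With the replicate block, 3 genes rose and 0 fell, as without it, 1920 of all probe sets passed, and the Poll and Foxo3 calls were lost (adjusted p = 0.0604 and 0.0609 from limma). Quantile normalization and centring moved little, since the arrays already share nearly 1 distribution, and centring shifted an array by at most 0.001 on the log2 scale. Probe sets near the array median of 20, as those of Nhej1 and 1 of Xrcc6, carry little signal over background.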

Other observations

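The pattern of Rag1 over the 6 EPLM arrays was most like those of Bbs9 (r = 0.998), Ext1 (r = 0.998) and Ywhae (r = 0.997), and 650 of 9892 genes had r over 0.9 with it. The Rag2 pattern was most like those of Ttl (r = 0.99), Ska2 (r = 0.98) and Lbr (r = 0.98), with 172 genes over 0.9. The pattern of the brightest Dntt probe set was most like those of Tdp2 (r = 0.996), which encodes an enzyme that frees blocked DNA ends, Slc25a11 (r = 0.99) and Brd8 (r = 0.99), with 258 genes over 0.9. These correlations run over 6 arrays that share the split by genotype and are given as a description. Among the 9 members, Lig4 was most like Rag1 (r = 0.97), and Prkdc ran opposite to Xrcc5 (r = -0.98).

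Abhd13, the gene next to Lig4, which starts from the other strand close to the outer Lig4 start, was looked up after the Lig4 values had been seen. It read 431, 440 and 519 in WT and 677, 558 and 656 in BCS EPLMs, a log2 change of 0.44 (SE 0.15) that did not pass (limma adjusted p = 0.159). The genotypes did not overlap, as for 14.4% of all genes with BCS above WT. Tnfsf13b, the next gene on that side, had a log2 change of 0.02 (SE 0.37, limma adjusted p = 0.989), and Arglu1 and Fam155a, the nearest measured genes on the other side, had -0.11 and -0.03.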
